A study of Rattus norvegicus with 12 samples.

Results

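The 10 genes described here, Pecam1, Cdh5, Kdr, Flt1, Tek, Emcn, Ehd3, Plvap, Nos3 and Eng, are markers of vascular endothelium and receptors through which endothelial cells read vascular growth factors. They were chosen by name, with earlier results of these data known, and all 10 were among the 13151 genes of the expression table. Renal cortex was taken from 12 male rats at 32 weeks of age, 4 in each of 3 groups. Zucker lean (ZL) rats were the controls, and Zucker fatty (ZF) rats, whose leptin signalling is lost by mutation (the methods name the leptin receptor, the series description leptin itself), were the obesity model. The ZF-SGLT2i group received canagliflozin, an inhibitor of sodium-glucose cotransporter 2, in food (10 mg/kg/day) for the last 8 weeks, starting at an age of 24 weeks, so they shared the ZF genotype. The defect is carried in every cell of the animal, and each library held whole cortex (glomeruli, tubules, vessels and interstitium), so the level of an endothelial gene is its share of cortical RNA. The study names the sequenced ZF rats as the untreated arm of the cohort in which ZF rats were randomised to treatment, whereas it describes ZL rats in another cohort, one that had earlier wedge biopsies of the kidney. Cohort and genotype therefore cannot be told apart in comparisons with ZL rats. Fewer endothelial cells and less RNA of a gene per endothelial cell cannot be told apart in these libraries.

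Endothelial cells line every vessel, and in the kidney they differ by segment. The glomerular capillary is thin, fenestrated and faces the podocyte, which makes vascular endothelial growth factor A (VEGF-A); the peritubular capillary serves the tubules. Kdr (VEGFR2) carries most VEGF signalling in the endothelial cell, Flt1 (VEGFR1) binds VEGF-A tightly and can act as a trap, and Tek (TIE2) is the receptor for the angiopoietins. Eng (endoglin) is a co-receptor for bone morphogenetic protein (BMP) and transforming growth factor β ligands, and Nos3 is the endothelial nitric oxide synthase (eNOS). Pecam1 and Cdh5 (VE-cadherin) are adhesion molecules of endothelial contacts, Emcn (endomucin) is a surface sialomucin, Ehd3 is an endocytic trafficking protein enriched in glomerular endothelium, and Plvap forms the diaphragms of fenestrae and caveolae, as in peritubular capillaries.

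Between 8824980 and 12210257 reads per rat were assigned to genes, and values are in CPM (counts as a share of the library, after the authors' scaling of the libraries). The lowest count of any member in any rat was 98 reads (Nos3) and the highest 2470 reads (Kdr), so all 10 members passed the filter on low values (1 CPM or more in 4 or more rats). Of 23 listed endothelial markers outside the 10, 20 were in the table and 19 passed the filter (Robo4, at 0 in 8 of 12 rats, did not), and the summed level of the 20 ran from 677 CPM in ZL rat 3 to 1037 CPM in ZF-SGLT2i rat 6. Platelets also carry Pecam1; their markers Pf4 and Gp9 were near 0, together at 0.20 to 0.57 CPM. 

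One lean library stood apart in these genes. ZL rat 3 was below the 12-rat mean in all 10 members, by 0.42 on average on the log2 scale; it had the lowest value of its group in 8 of 10 and of all 12 rats in 7 of 10. It was also the shallowest ZL library (8886901 reads), had the smallest share of reads on ribosomal RNA genes (7.25%), and was lowest of the ZL rats in the summed podocyte markers (1709 CPM) and fibroblast markers (256 CPM). Their part in the result was not tested. Results of the members that rest on this rat are given below with and without it, as are the counts of some lists. A call of a list gene given without such a count may also rest on this rat. At the other end, ZF rats 2 and 3 were above the mean in all 10 members, and ZF-SGLT2i rat 6 was above it in 9, by 0.25 on average.

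**Figure D1:**
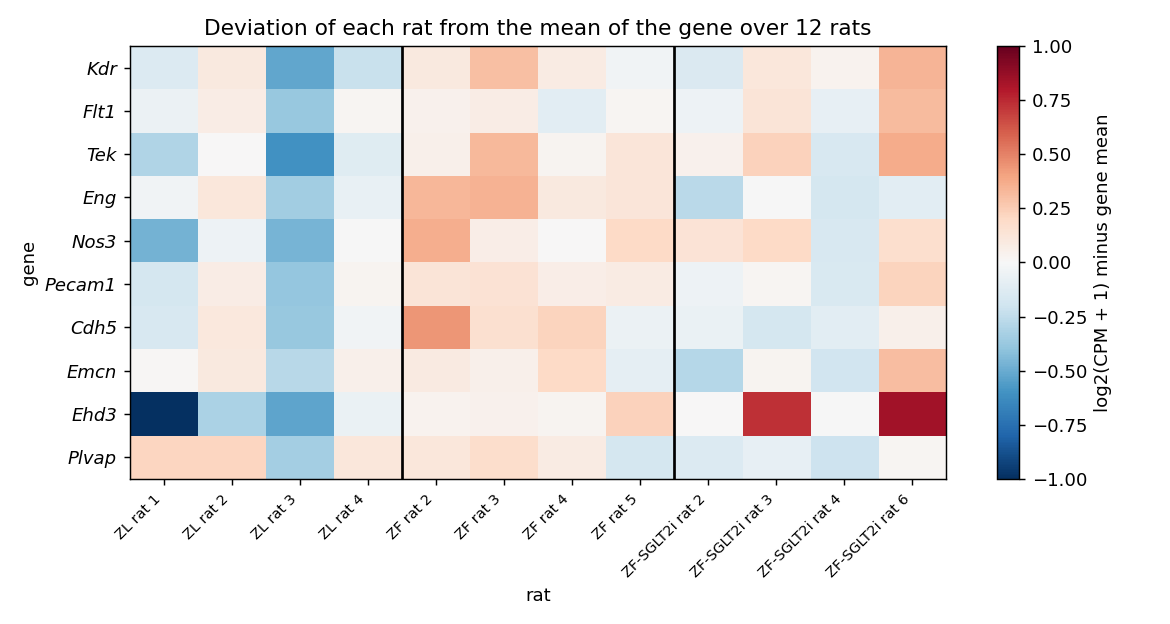
Each cell is the log2(CPM + 1) of a gene in a rat minus the mean of that gene over the 12 rats (blue below, red above), with black lines between the ZL, ZF and ZF-SGLT2i groups. ZL rat 3 is below the mean in all 10 genes, ZF rats 2 and 3 are above it in all 10, and the widest span belongs to Ehd3.

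The stretch before the start of transcription was read for the members whose promoter was in the RefSeq table used (7 of 10: Kdr, Flt1, Emcn, Ehd3, Plvap, Nos3 and Eng; build GRCr8). Endothelial genes are known to use ETS, GATA and Krüppel-like (KLF) factors, so 3 short motifs were searched on both strands of the 250 bases upstream: AGGAAG for ETS factors, then AGATAA for GATA factors, and lastly CACCC for KLF factors. The ETS letters occurred in 5 of the 7 members and in 29.5% of 33469 promoters, the KLF letters in 5 of 7 and in 49.2%, and the GATA letters in 0 of 7 and in 10.3%. The sequences of Eng, Nos3 and Ehd3 are shown, since these are the members with a promoter here that passed the test in at least 1 comparison. They run 5′ to 3′ on the gene's strand up to the base before the start, and capitals mark the ETS and KLF letters or their reverse complements.
Eng (chr3:36332029-36332278, plus strand): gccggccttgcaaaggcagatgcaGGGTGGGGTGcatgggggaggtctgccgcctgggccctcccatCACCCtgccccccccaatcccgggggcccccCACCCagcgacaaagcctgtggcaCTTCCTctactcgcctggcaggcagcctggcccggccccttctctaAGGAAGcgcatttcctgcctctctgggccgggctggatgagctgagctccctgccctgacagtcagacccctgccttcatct
Nos3 (chr4:11706582-11706831, minus strand): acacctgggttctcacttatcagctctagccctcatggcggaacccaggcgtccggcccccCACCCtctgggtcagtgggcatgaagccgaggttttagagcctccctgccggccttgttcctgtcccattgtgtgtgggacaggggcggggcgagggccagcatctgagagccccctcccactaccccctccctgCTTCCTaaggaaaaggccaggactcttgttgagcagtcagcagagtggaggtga
Ehd3 (chr6:27417446-27417695, minus strand): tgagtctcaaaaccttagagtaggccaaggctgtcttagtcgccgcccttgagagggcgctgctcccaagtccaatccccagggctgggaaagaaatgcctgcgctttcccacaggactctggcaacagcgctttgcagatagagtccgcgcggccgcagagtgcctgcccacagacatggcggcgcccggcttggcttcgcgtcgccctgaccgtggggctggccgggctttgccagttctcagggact
Eng held 2 ETS matches, 128 and 82 bases before the start, and 4 KLF matches, whereas Nos3 held 1 of each and Ehd3 neither. A match describes letters only; binding of a factor was not measured.

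The first comparison, ZF with ZL rats, asked how the cortex of the obese and the lean rats differed. Of the 10 genes, 2 rose in ZF rats, Nos3 and Eng, and none fell; 18.8% of the 11633 genes tested passed in this comparison (953 higher, 8.19%, and 1232 lower, 10.6%), so 2 of 10 is close to the share among all genes. After quantile normalization of the same values 1103 genes were higher and 942 lower, and 4 of the 10 members were called. Of the 10, 9 had a log2 fold change above 0 (48.4% of all genes did), and the median member was 0.31 higher against -0.01 for the median gene. The groups did not overlap for 3 members, Tek, Ehd3 and Nos3, all higher in ZF rats, while 8.67% of all genes were separated in that direction. Leaving out ZL rat 3 ended both calls and took the median member to 0.21. The count was also 0 without ZL rat 1, ZF rat 2 or ZF rat 3, and 5 without ZL rat 2.

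The second comparison, ZF-SGLT2i with ZF rats, asked what the inhibitor did in the obese cortex. None of the 10 members passed limma's test (3.15% of all genes did, 1.39% higher and 1.75% lower); 2 of 10, Eng and Cdh5, had an unadjusted p under 0.05 (17.2% of all genes), edgeR's quasi-likelihood test called 0, and DESeq2 called 1, Eng. Eng was the member with the clearest difference: all 4 treated rats lay below all 4 ZF rats (5.63% of all genes were separated in that direction and 5.54% in the other). The median member differed by -0.08 on the log2 scale against 0.01 for the median gene.

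The third comparison set ZF-SGLT2i against ZL rats, treated obese animals against lean ones. Ehd3 and Tek rose and no member fell, 2 of 10 where 27.4% of all genes passed (12.4% higher and 15.0% lower). Ehd3 was also the 1 member whose groups did not overlap (28.0% of all genes), and 4 of 10, Kdr and Nos3 besides these, had an unadjusted p under 0.05 (39.3% of all genes). The median member was 0.15 higher, against -7.0e-05 for the median gene. Without ZL rat 3 the median member was 0.05 higher and the count was again 2, but the genes were Ehd3, higher, and Plvap, lower. ZL rats are the reference in the first and the third comparison and ZF rats take part in the first and the second, so the 3 sets of values are not independent.

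**Figure D2:**
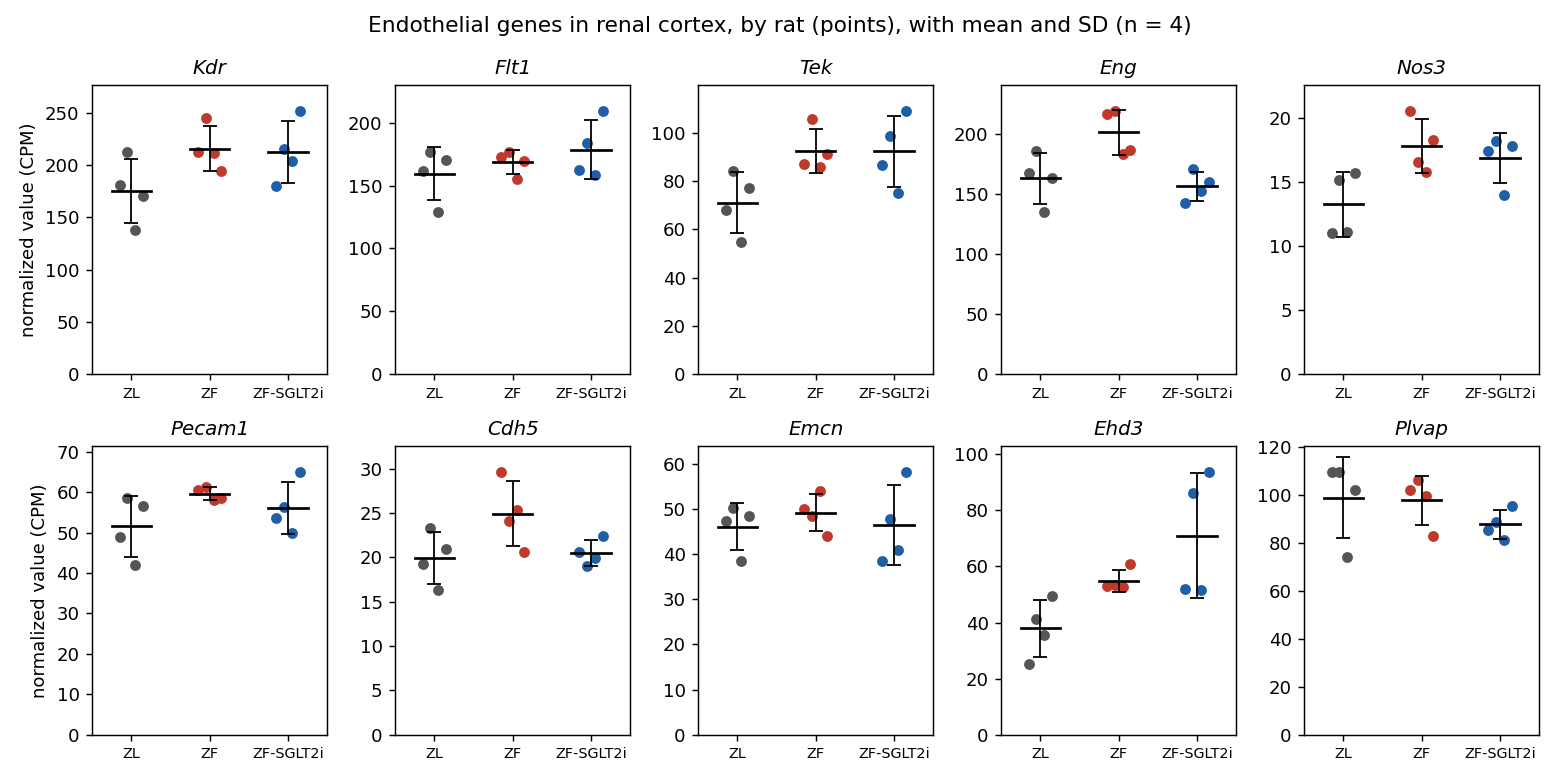
Normalized value (CPM, axes from 0) of each gene in each rat (points) with the mean and SD of the 4 rats of a group (bars). ZL and ZF rats do not overlap for Tek, Nos3 and Ehd3, ZF-SGLT2i and ZF rats do not overlap for Eng, and Ehd3 in ZF-SGLT2i rats falls into 2 rats near 52 and 2 rats above 86.

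Kdr, the main signalling receptor for VEGF-A, was at 180.5, 212, 138 and 171 CPM in the ZL rats, at 212, 245, 211 and 194 CPM in the ZF rats, and at 180.0, 215, 204 and 251 CPM in the ZF-SGLT2i rats. Both obese groups had means above the lean group, but the highest ZL rat lay above the lowest rats of each. The log2 fold change was 0.31 ± 0.12 (SE) in ZF against ZL rats and 0.28 ± 0.12 in ZF-SGLT2i against ZL rats, and neither passed (limma, adjusted p = 0.0996 and 0.106). Without ZL rat 2, the highest lean animal, both passed, at 0.40 (adjusted p = 0.030) and 0.38 (adjusted p = 0.030), and without ZL rat 3, the lowest, they were 0.20 (adjusted p = 0.253) and 0.17 (adjusted p = 0.274).

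Flt1, the high-affinity receptor that can trap VEGF-A, was at 161, 177, 129 and 170.2 CPM in ZL, 173, 177, 156 and 169.8 CPM in ZF, and 162, 184, 159 and 209 CPM in ZF-SGLT2i rats. The 3 groups overlapped throughout. The log2 fold changes were 0.09 (95% interval -0.13 to 0.31) in ZF against ZL rats and 0.16 (-0.06 to 0.38) in ZF-SGLT2i against ZL rats, and without ZL rat 3 they were -0.0064 and 0.067. Within a rat, the level of Flt1 divided by that of Kdr, both with 1 added, was 0.83 to 1.00 in lean rats, 0.72 to 0.88 in ZF rats and 0.78 to 0.90 in treated rats. The mean log2 ratio was 0.22 lower in ZF than in ZL rats, with overlapping groups (two-sided exact permutation test, p = 0.057, 0.214 after adjustment over the 15 ratio tests).

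The ligands did not pass in ZF against ZL rats: 0 of the 7 VEGF and angiopoietin genes tested were called, with a median log2 fold change of 0.05. Vegfa, which podocytes and tubules make, was at 314, 340.4, 408 and 300.2 CPM in ZL, 362, 342, 262 and 428 CPM in ZF, and 384, 405, 371 and 472 CPM in ZF-SGLT2i rats. Those groups overlapped, and the largest difference was 0.26 in ZF-SGLT2i against ZL rats (limma, adjusted p = 0.162). Among the other receptors (4 tested) Tie1, the partner of TIE2, and Flt4 (VEGFR3), the lymphatic VEGF receptor, rose in ZF rats, by 0.31 (adjusted p = 0.020) and 0.49 (adjusted p = 0.032). The 4 ZF rats were above the 4 ZL rats for Tie1, at 88.3 to 105 CPM against 68.5 to 86.1 CPM. Neither was called without ZL rat 3. The co-receptor Nrp1 was at 111 to 139 CPM in ZL and 118 to 141 CPM in ZF rats and was not called in any comparison, whereas Nrp2 fell by 0.48 in ZF-SGLT2i against ZF rats (adjusted p = 0.035).

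Tek, the angiopoietin receptor, was at 67.9, 84.1, 54.8 and 77.0 CPM in the ZL rats, at 87.2, 106, 85.7 and 91.3 CPM in the ZF rats and at 86.5, 98.8, 75.1 and 109 CPM in the ZF-SGLT2i rats. Every ZF rat was above every ZL rat, while 1 treated rat (75.1 CPM) fell inside the lean range. The ZF difference was 0.39 ± 0.13 and just missed the threshold (limma, adjusted p = 0.053; two-sided exact permutation p = 0.0286, the smallest that 4 rats against 4 can give, 0.171 after adjustment over the 30 member tests). The ZF-SGLT2i difference from ZL was of like size, 0.38 ± 0.13, and passed (adjusted p = 0.045). It did not pass without ZL rat 3 (0.26, adjusted p = 0.121), nor in a further 8 of the 22 alternative fits.

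Angpt1, the angiopoietin that activates TIE2, moved in the treated rats. It was at 22.4, 25.4, 28.6 and 15.7 CPM in ZL, 19.5, 24.7, 26.6 and 21.3 CPM in ZF, and 14.7, 13.1, 15.6 and 14.2 CPM in ZF-SGLT2i rats. All treated rats were below all rats of both other groups. The log2 fold change was -0.63 against ZF rats (limma, adjusted p = 0.034) and -0.61 against ZL rats (adjusted p = 0.0083), and it was the 1 ligand of 7 called in each of these comparisons. Angpt2, the context-dependent antagonist made by endothelium, was at 3.63 to 7.68 CPM in ZL, 6.78 to 7.96 CPM in ZF and 5.33 to 6.02 CPM in ZF-SGLT2i rats and was not called (adjusted p = 0.084 in ZF against ZL rats and 0.284 in ZF-SGLT2i against ZF rats).

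**Figure D3:**
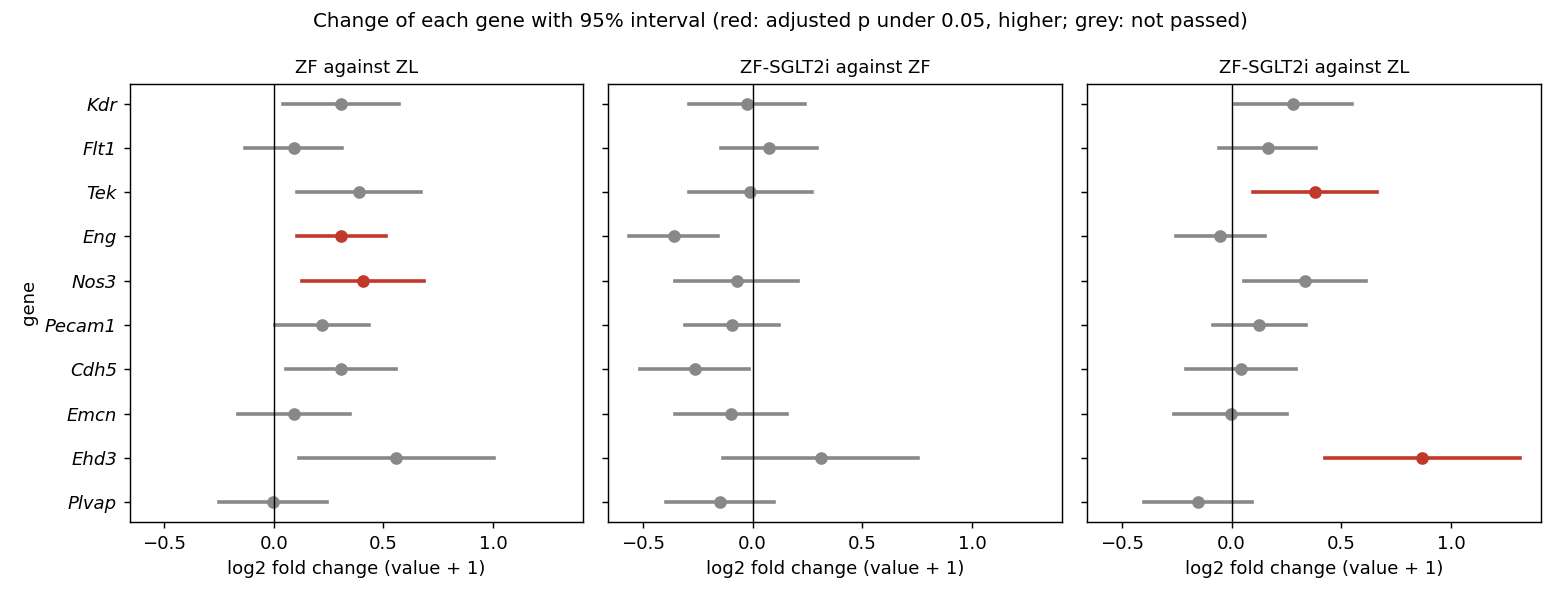
Log2 fold change of each gene (points; log2 of value + 1) with its 95% interval (lines) in the 3 comparisons; red marks adjusted p under 0.05. Nos3 and Eng pass in ZF against ZL, none pass in ZF-SGLT2i against ZF, where Eng lies lowest at -0.36, and Tek and Ehd3 pass in ZF-SGLT2i against ZL.

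Eng rose in ZF rats and had the lowest mean of the 3 groups in treated rats. It was at 168, 186, 135 and 163 CPM in the ZL rats, at 216, 219, 184 and 187 CPM in the ZF rats and at 143, 171, 152 and 160.2 CPM in the ZF-SGLT2i rats. ZF rats were above the other groups except that the highest ZL rat (186 CPM) passed the lowest ZF rat (184 CPM), and the treated rats lay within the lean range. Eng rose by 0.31 ± 0.09 in ZF against ZL rats (limma, adjusted p = 0.036), a call that ended without ZL rat 3 (0.22, adjusted p = 0.092) and without ZL rat 1, ZL rat 4, ZF rat 2 or ZF rat 3 (adjusted p from 0.058 to 0.106). In ZF-SGLT2i against ZF rats it differed by -0.36 ± 0.09 (adjusted p = 0.057; two-sided exact permutation p = 0.0286, 0.171 after adjustment). That difference passed in 6 of the 22 alternative fits, among them without ZL rat 3 (adjusted p = 0.025) and with DESeq2 (adjusted p = 0.012). In ZF-SGLT2i against ZL rats it was -0.05 (95% interval -0.25 to 0.15), and 0.04 after quantile normalization.

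Among the genes around endoglin, 5 of 14 endothelial TGF-β and BMP genes tested were higher and 1 was lower in ZF against ZL rats, with a median of 0.22. Acvrl1 (ALK1), the receptor endoglin works with, rose by 0.37 (adjusted p = 0.025), with ZL rats at 26.7 to 36.2 CPM and ZF rats at 36.2 to 45.2 CPM, which just overlapped. The ligand Bmp6 rose by 0.66 (adjusted p = 0.0064) and the BMP target Id1 by 0.72 (adjusted p = 0.020), while Id2, which tubules also express, fell by 0.48 (adjusted p = 0.023). Without ZL rat 3, 2 of the 14 were higher and 0 lower. None of the 14 was called in ZF-SGLT2i against ZF rats: Acvrl1 differed by 0.03 and Bmpr2, the type II receptor, by 0.08. The largest difference was that of the BMP target Id3, singled out after its values were seen, at 35.9 to 46.7 CPM in ZF and 19.9 to 30.6 CPM in treated rats, which did not overlap (-0.70, limma, adjusted p = 0.057). Against ZL rats, treated rats had 5 higher and 1 lower, with Acvrl1 at 0.40 (adjusted p = 0.012), Bmpr2 at 0.26 (adjusted p = 0.016) and Id2 at -0.75 (adjusted p = 0.0011).

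Nos3, the endothelial nitric oxide synthase, was at 11.0, 15.2, 11.1 and 15.7 CPM in ZL, 20.5, 16.5, 15.8 and 18.3 CPM in ZF and 17.4, 18.2, 14.0 and 17.8 CPM in ZF-SGLT2i rats. The 4 ZF rats were above the 4 ZL rats, the nearest pair being 15.8 and 15.7 CPM. Nos3 rose by 0.41 ± 0.13 in ZF rats (limma, adjusted p = 0.042; two-sided exact permutation p = 0.0286, 0.171 after adjustment), a call that 10 of the 22 alternative fits did not keep. Without ZL rat 3 it was 0.34 (adjusted p = 0.110) and without ZL rat 1 it was 0.33 (adjusted p = 0.125). Treatment left no detectable difference, -0.07 with a 95% interval of -0.35 to 0.21, and the treated rats were 0.33 above lean rats (adjusted p = 0.070).

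Of 13 partners of eNOS, 3 were higher and 3 lower in ZF against ZL rats, with a median of 0.11. Ddah2, which clears the eNOS inhibitor asymmetric dimethylarginine, rose by 0.27 (adjusted p = 0.0071) and Akt1, the kinase that activates eNOS, by 0.23 (adjusted p = 0.0084). The chaperones fell, Hsp90aa1 by 0.39 (adjusted p = 0.0026) and Hsp90ab1 by 0.25 (adjusted p = 0.015); both are abundant in every cell type. For these 4 genes the ZF and ZL rats did not overlap. In treated against ZF rats 2 of 13 fell: Hsp90aa1, from 294 to 349 CPM down to 242 to 282 CPM (-0.31, adjusted p = 0.026), and Gucy1b3, a subunit of the nitric oxide receptor guanylate cyclase, from 17.7 to 27.2 CPM down to 13.5 to 16.2 CPM (-0.60, adjusted p = 0.025). Cav1, the caveolar protein that binds eNOS, was at 38.1 to 56.6 CPM in ZL, 45.1 to 61.9 CPM in ZF and 53.0 to 63.1 CPM in ZF-SGLT2i rats and was not called. Against ZL rats, treated rats had 1 partner higher (Ddah2, 0.30, adjusted p = 0.0027) and 3 lower.

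Pecam1, found at the contacts of all endothelium, was at 48.9, 58.5, 42.1 and 56.5 CPM in ZL, 60.6, 61.3, 58.1 and 58.6 CPM in ZF and 53.5, 56.2, 49.8 and 65.0 CPM in ZF-SGLT2i rats. The ZF rats lay close together, and the highest ZL rat entered their range. No comparison passed, the largest difference being 0.22 in ZF against ZL rats (limma, adjusted p = 0.140), or 0.13 without ZL rat 3 (adjusted p = 0.346). Cdh5, the cadherin of endothelial junctions, was at 19.2, 23.3, 16.3 and 21.0 CPM in ZL, 29.6, 24.2, 25.3 and 20.7 CPM in ZF and 20.6, 19.0, 19.9 and 22.4 CPM in ZF-SGLT2i rats. ZF rats 2, 3 and 4 were above every ZL and ZF-SGLT2i rat, and ZF rat 5 was not. The log2 fold change was 0.31 in ZF against ZL rats (adjusted p = 0.081) and -0.26 in ZF-SGLT2i against ZF rats (unadjusted p = 0.039, adjusted p = 0.258).

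Set against Pecam1 within each rat, neither Kdr nor Nos3 separated the groups after adjustment. The log2 ratio of Kdr to Pecam1 differed by 0.09 in ZF against ZL rats (two-sided exact permutation p = 0.400) and by 0.16 in ZF-SGLT2i against ZL rats (p = 0.143). That of Nos3 to Pecam1 differed by 0.19 (exact permutation p = 0.114) and 0.21 (p = 0.057), and all adjusted p-values over the 15 ratio tests were at least 0.214.

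Junction genes that work with VE-cadherin were called in part. Of 11 tested, 2 rose in ZF against ZL rats: Cldn5, the endothelial claudin, from 18.5 to 25.1 CPM in ZL to 29.7 to 35.7 CPM in ZF rats (0.58, adjusted p = 0.0034), and the scaffold Tjp1 (0.31, adjusted p = 0.0079). Neither pair of groups overlapped, and both were also higher in treated against ZL rats, at 0.56 and 0.33, among 5 of 11 called. The adhesion molecules F11r and Esam were the other genes named by the rule there, at 0.31 (adjusted p = 0.0014) and 0.49 (adjusted p = 0.0029). In treated against ZF rats 1 fell, the actin linker Vcl (-0.29, adjusted p = 0.0083), and tubular epithelium expresses Tjp1, F11r, Vcl and Ctnnd1 as well.

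Ehd3, of glomerular endothelium, had the largest coefficient of variation of the 10 among ZL rats (26.6%) and among ZF-SGLT2i rats (31.4%), but not among ZF rats (7.10%). It was at 25.4, 41.4, 35.6 and 49.4 CPM in the ZL rats, at 52.9, 53.2, 52.8 and 60.8 CPM in the ZF rats and at 51.9, 86.3, 51.6 and 93.6 CPM in the ZF-SGLT2i rats. Both obese groups lay wholly above the lean one, and the treated rats divided into rats 2 and 4, level with ZF rats, and rats 3 and 6, above them. Ehd3 rose by 0.87 ± 0.21 in treated against ZL rats, 1.87-fold by means (limma, adjusted p = 0.0075; two-sided exact permutation p = 0.0286, 0.171 after adjustment), and by 0.85 without ZL rat 3 (adjusted p = 0.018). It passed in 21 of the 22 alternative fits. In ZF against ZL rats it was 0.56 ± 0.21 and did not pass (adjusted p = 0.076), and in ZF-SGLT2i against ZF rats it was 0.31 (95% interval -0.13 to 0.76).

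Emcn, also prominent in glomerular capillaries, gave no such pattern: 47.3, 50.1, 38.6 and 48.5 CPM in ZL, 50.0, 48.5, 54.0 and 44.1 CPM in ZF and 38.4, 47.9, 41.0 and 58.2 CPM in ZF-SGLT2i rats. The groups overlapped in every comparison and the 3 log2 fold changes lay between -0.10 and 0.09. Plvap, of peritubular capillaries, was at 109.7, 109.8, 74.2 and 102 CPM in ZL, 102, 107, 99.9 and 83.2 CPM in ZF and 85.6, 89.0, 81.4 and 95.7 CPM in ZF-SGLT2i rats. ZL rats 1, 2 and 4 were above every treated rat and ZL rat 3 was below them all. The difference of treated from lean rats was -0.15 (limma, adjusted p = 0.348) with ZL rat 3 and -0.28 (adjusted p = 0.026) without it.

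The level of Ehd3 relative to Plvap within a rat was 0.23, 0.38, 0.48 and 0.48 in ZL, 0.52, 0.50, 0.53 and 0.73 in ZF and 0.61, 0.97, 0.63 and 0.98 in ZF-SGLT2i rats. It was higher in every obese rat than in any lean rat, ZL rat 3 included. On the log2 scale, with 1 added to both levels, the difference was 0.56 in ZF and 1.02 in ZF-SGLT2i rats against ZL rats (two-sided exact permutation p = 0.0286 each, 0.214 after adjustment over the 15 ratio tests). Without ZL rat 1, the lowest at 0.23, the differences were 0.33 and 0.79.

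Segment lists gave mixed calls. Of 13 glomerular endothelial genes tested, a list that holds Ehd3, Emcn and Kdr, 4 were higher and 3 lower in ZF against ZL rats (median 0.31), with Nostrin, an eNOS trafficking factor, at 0.36 (adjusted p = 0.023) and the lipoprotein lipase Lpl at -0.35 (adjusted p = 0.014). Mapt, which other cells of the cortex may also express, fell by 0.25 (adjusted p = 0.0038), and Pi16 rose by 0.54 (adjusted p = 0.0079) at 1.70 to 3.72 CPM. Without ZL rat 3 the counts were 1 higher and 3 lower. Treated rats had 0 called against ZF rats, and 4 higher and 2 lower against ZL rats.

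Of 7 peritubular capillary genes, Plvap among them, the natriuretic peptide clearance receptor Npr3 rose in ZF against ZL rats (0.41, adjusted p = 0.028). Without ZL rat 3, 0 of the 7 were called in ZF against ZL rats. The apelin receptor Aplnr fell in treated against ZF rats, from 13.8 to 18.0 CPM down to 8.28 to 12.5 CPM (-0.59, adjusted p = 0.046). Against ZL rats 2 were higher, Npr3 and the cell-cycle regulator Rgcc (1.05, adjusted p = 0.0069), and 2 lower, Aplnr and the IGF-binding protein Igfbp3 (-0.58, adjusted p = 0.0011). Arterial genes (10 tested) had Cldn5 called higher in ZF against ZL rats, and the elastic fibre protein Fbln5, which mesenchymal cells also make, called lower in treated rats, from 112 to 166 CPM in ZF down to 87.7 to 96.2 CPM (-0.57, adjusted p = 0.019). Lymphatic genes (6 tested) had 3 higher and 0 lower in ZF against ZL rats, Flt4, Pdpn and Reln, with Pdpn also made by podocytes; 0 of the 3 calls were made without ZL rat 3. Of 3 venous and descending vasa recta genes only Aqp1, which proximal tubule expresses at a high level, was called, lower in ZF against ZL rats.

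Of 19 other endothelial markers tested, 7 were higher and 0 lower (median 0.25), led by Rasip1, a regulator of vessel lumen formation, at 22.1 to 24.9 CPM in ZF against 12.8 to 17.1 CPM in ZL rats (0.59, adjusted p = 0.0020), with Cldn5, Tie1 and Mcam next. Without ZL rat 3 it was 4 of 19. In treated against ZF rats 0 were higher and 1 lower, Cd34, a sialomucin also made by stromal cells, from 16.8 to 26.7 CPM down to 13.7 to 15.4 CPM (-0.60, adjusted p = 0.026). The orphan receptor Adgrf5, which intercalated cells of the collecting duct also make, was at 268 to 344 CPM in ZF and 391 to 428 CPM in treated rats, which did not overlap (0.38, adjusted p = 0.057). Against ZL rats 6 were higher and 1 lower, with Adgrf5 at 0.62 (adjusted p = 6.3e-04). Of 9 collecting duct markers, all 9 had a log2 fold change above 0 in treated against ZF rats and 1 was called, and 7 were called higher against ZL rats; their part in the Adgrf5 values was not tested.

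Among 16 endothelial transcription factors 3 rose in ZF against ZL rats (median 0.22), and the count without ZL rat 3 was also 3. They were the ETS factors Elk3 (0.34, adjusted p = 0.0046) and Ets1 (0.36, adjusted p = 0.016) and the shear-responsive Klf2 (0.54, adjusted p = 0.015), and for each the groups did not overlap. Elk3 was at 28.5 to 35.7 CPM in ZL, 40.0 to 42.1 CPM in ZF and 32.5 to 35.3 CPM in treated rats, and fell with treatment (-0.27, adjusted p = 0.044). Klf2 stayed at 21.7 to 31.6 CPM in treated rats, above the ZL range of 12.7 to 20.6 CPM (0.63, adjusted p = 0.0042).

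Of the activation genes, which inflamed endothelium and other cells make, 2 of 8 rose in ZF against ZL rats and 2 of 8 fell in treated against ZF rats. Without ZL rat 3 these counts were 1 of 8 and 3 of 8. Icam1, a leukocyte adhesion molecule, rose by 0.52 in ZF rats (limma, adjusted p = 0.030). In treated against ZF rats the 2 called were the chemokine Cx3cl1, lower by 0.43 on the log2 scale (adjusted p = 0.026), and the adhesion molecule Vcam1, from 17.8 to 32.7 CPM down to 13.9 to 17.9 CPM (-0.67, adjusted p = 0.039). Against ZL rats Cx3cl1 and Vcam1 were lower.

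**Figure D4:**
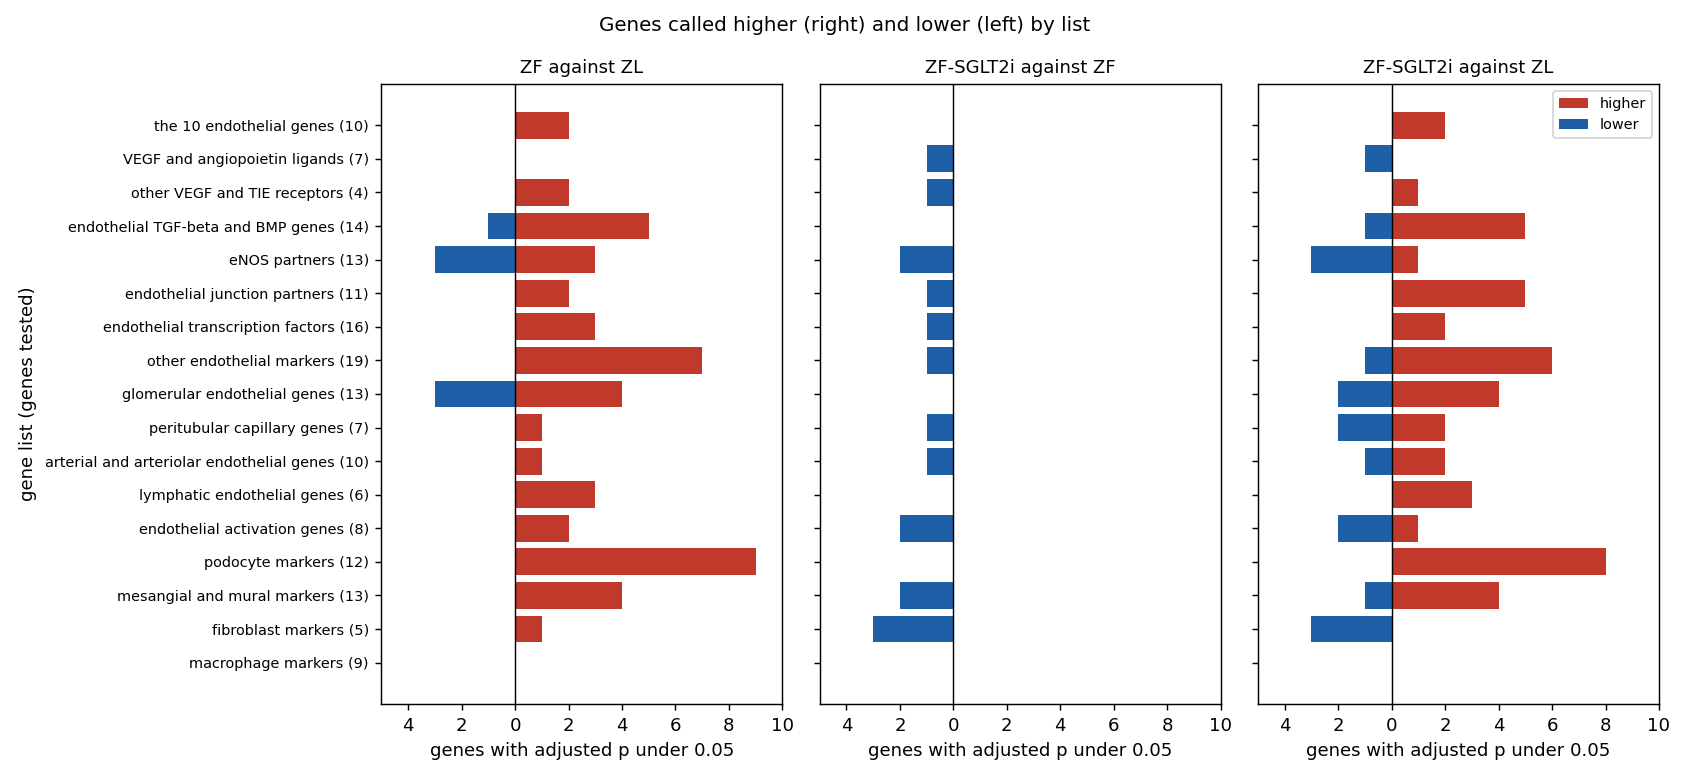
Number of genes of each list called higher (right, red) or lower (left, blue) at adjusted p under 0.05, with the genes tested in brackets; lists share some genes. Podocyte markers (9 of 12) and other endothelial markers (7 of 19) have the most genes called higher in ZF against ZL. Without ZL rat 3, not drawn, these counts were 6 of 12 and 4 of 19. With treatment, against ZF rats, every call in the lists drawn (endothelial, podocyte, mesangial, fibroblast and macrophage) is lower.

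Markers of the cells next to the endothelium were read in the same comparisons. Podocyte markers summed to 1923 ± 245 CPM in ZL, 2635 ± 252 CPM in ZF and 2699 ± 286 CPM in ZF-SGLT2i rats (SD, n = 4). Against ZL rats, 9 of 12 were higher in ZF and 8 of 12 in treated rats, or 6 and 8 without ZL rat 3. In treated against ZF rats 0 of the 12 podocyte markers were called, with a median log2 fold change of 0.02. Podxl had the highest CPM of them, not corrected for length, at 936 CPM over all rats, and is also made by endothelium. The 10 endothelial members summed to 836 ± 119, 983 ± 59.6 and 939 ± 117 CPM. Mesangial, pericyte and smooth muscle markers summed to 550.1 ± 76.0, 690.1 ± 111 and 589.6 ± 38.8 CPM. Of 13 tested, 4 were higher in ZF against ZL rats (Des 1.17, Pdgfrb 0.67, Notch3 0.51, Itga8 0.73 on the log2 scale), and 3 without ZL rat 3. In treated against ZF rats 2 of 13, Pdgfrb and Tagln, were lower, and again 2 without ZL rat 3.

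Fibroblast markers ran from 256 to 397 CPM in ZL, 354 to 597 CPM in ZF and 223 to 279 CPM in ZF-SGLT2i rats. In ZF against ZL rats 1 of 5 tested was higher (Col1a1, 0.61), and 0 without ZL rat 3. In treated against ZF rats 3 of 5 were lower (Dcn -1.11, Col3a1 -1.03 and Col1a2 -0.79), and 4 without ZL rat 3. Eng, Cd34, Fbln5 and Vcam1, which had lower means in treated than in ZF rats, can also be made by mesangial cells or fibroblasts. Macrophage markers summed to 782 to 969, 837 to 1291 and 817 to 1206 CPM, with 0 of 9 called in any comparison. All 9 had a log2 fold change above 0 in ZF against ZL rats (median 0.33). In treated against ZF rats all 9 were below 0 (median -0.11), and against ZL rats 7 were above 0 and 2 below. Lymphocyte markers were sparse, with 2 of 10 tested, 0 called and sums under 33 CPM in every rat. The part of these cells in the endothelial results was not tested.

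The 10 members varied together from rat to rat. Over the 12 rats the Pearson correlation of the 45 pairs of members had a median of 0.64 and ran from -0.18 (Ehd3 with Plvap) to 0.91 (Tek with Pecam1). After the group means were taken out the median was 0.69, from 0.10 (the same pair) to 0.94 (Flt1 with Pecam1). Each point is a rat, in which both genes of a pair share the same library and its scaling, and these values are descriptions. Over all tested genes, the mean profile of the members was most like Mfge8 (r = 0.95), Mcam (r = 0.94) and Pear1 (r = 0.94). The nearest gene to each member differed: Mcam for Pecam1 (r = 0.92), Lamc1 for Kdr (r = 0.91), Notch1 for Flt1 (r = 0.91), Stat2 for Tek (r = 0.95), Ltbp1 for Emcn (r = 0.84), Mknk2 for Ehd3 (r = 0.96), Jund for Plvap (r = 0.90), Ehbp1l1 for Nos3 (r = 0.95), Ccnd2 for Cdh5 (r = 0.94) and Fstl1 for Eng (r = 0.92), each over 12 rats.

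By mean level, 6 of the 10 members ran ZF, then ZF-SGLT2i, then ZL (Pecam1, Kdr, Tek, Emcn, Nos3 and Cdh5). Ehd3 and Flt1 ran ZF-SGLT2i, ZF, ZL, Eng ran ZF, ZL, ZF-SGLT2i, and Plvap ran ZL, ZF, ZF-SGLT2i. Neighbours in these orders overlapped in their values for every member except Ehd3, where ZF and ZL rats were apart.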

How the data were processed

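Total RNA of renal cortex was depleted of ribosomal RNA and sequenced as strand-directional paired-end libraries from 12 rats (4 ZL, 4 ZF, 4 ZF-SGLT2i). The submitters' processing notes name Trimmomatic 0.38, RSEM 1.3.0, Bowtie2, edgeR and the build rn6. The deposited table holds signal values that the authors made by scaling gene counts with edgeR's TMM factors to CPM. Each column is a whole number of reads times 1 constant per rat, so reads were recovered for all 12 rats (8824980 to 12210257 per rat, every value whole within 0.001 of a read) and used in alternatives only. Of 13151 names, 12146 were RefSeq symbols and 780 unambiguous older symbols; all 10 members matched by their current symbol.

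The 11633 genes at 1 or more in 4 or more rats were tested with limma 3.58.1 (R 4.3.3) on log2(value + 1), with an intensity trend and the 3 groups in 1 fit, since the methods name no test for the sequencing data beyond general ones for group comparisons. A gene was called at a Benjamini-Hochberg adjusted p under 0.05 over all genes, and every adjusted p is limma's unless another test is named. Fold changes are on the log2(value + 1) scale and understate low genes. Each member and 5 within-rat ratios also had two-sided exact permutation tests over the 70 assignments of 4 rats against 4, adjusted over 30 and 15 tests. Nothing in the labels pairs rats across groups. Samples are treated as separate animals, as the study describes them, and all rats of a group differed beyond counting noise (chi-square per gene of at least 5.43). The fit was tested on simulated data.

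The members, gene lists and tests were chosen with earlier results of these data known, and list counts are descriptions. Named genes were the members, up to 4 called genes per list and comparison by adjusted p, the list's gene of highest CPM, and 9 pathway genes named regardless of result. Alternatives were another pseudocount (0.1), no filter or a mean of at least 10, median-ratio or quantile scaling, 2-group fits, a replicate block, array weights, edgeR 4.0.16 and DESeq2 1.42.0 on recovered reads, and leaving out each rat. Promoter sequences came from RefSeq (GRCr8). Transcript lengths were not used here, so a gene's CPM is not its level relative to other genes. Some genes of the lists, and 1 of the 5 ratios, are not reported here.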

Additional observations from a re-analysis of the deposited data

Results flagged for a closer look

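Within each group of 4 rats, a rat was marked where its gap to the nearest other rat, as a share of the group's range, exceeded Dixon's 95% critical value. Chance marks about 1 in 20 groups; 19 of 294 groups over the 98 genes named were marked, and 1 of the 30 member groups. That member was Ehd3, in ZF rat 5 (60.8 CPM, the other ZF rats at 52.8 to 53.2 CPM).

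Among other endothelial genes the marks were Bmpr2 in ZF rat 4 (154 CPM, the others from 181 to 186), Ddah2 in ZF-SGLT2i rat 2 (48.4 CPM, the others from 53.0 to 53.7), Ctnnd1 in ZF-SGLT2i rat 6 (324 CPM, the others from 356 to 360.2) and Rasip1 in ZF-SGLT2i rat 6 (26.9 CPM, the others from 20.9 to 21.3). In ZL rat 2 they were Adgrf5 (325 CPM, the others from 239.9 to 253) and Nostrin (10.2 CPM, the others from 7.54 to 7.94). Rgcc was marked in ZL rat 1 (9.24 CPM, the others from 20.1 to 22.2) and Cx3cl1 in ZF rat 5 (144 CPM, the others from 168 to 173).

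Among podocyte markers, ZF-SGLT2i rat 2 was low in Cdkn1c (69.0 CPM, the others from 89.9 to 91.1), Nphs1 (173 CPM, the others from 203 to 207) and Podxl (881 CPM, the others from 1119 to 1161), and ZL rat 2 was high in Nphs1 (173 CPM, the others from 132 to 134). ZL rat 3 was low in Pdgfra (133 CPM) and Col1a1 (54.3 CPM). Cd74 was high in ZL rat 1 (734 CPM) and low in ZF-SGLT2i rat 6 (579 CPM). ZL rat 4 was low in Slc22a6 (525 CPM) and Egf (1735 CPM).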

How the results depend on the processing

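Of 660 alternative values of the members' fold changes, 577 kept their direction and side of the threshold, 27 lost a call, 27 gained one and 29 changed sign. Members called in ZF against ZL were 4 with quantile normalization, 1 with the 2-group fit and 5 with array weights (2 in the analysis reported), and 0 to 5 with 1 rat left out. In ZF-SGLT2i against ZF rats the 2-group fit, array weights and DESeq2 gave 1 each (0 reported), and leaving out rats gave 0 to 1. Against ZL rats the 2-group fit gave 1 and leaving out rats 1 to 4 (2 reported). Genes called in ZF-SGLT2i against ZF were 689 with array weights and 641 with DESeq2 (366 reported), and 176 to 569 with 1 rat left out. In ZF against ZL they were 1384 to 2453 (2185 reported). The cause was not tested.

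Sign changes were small. Plvap in ZF against ZL was 0.0051 with median-ratio scaling and 0.054 with quantile normalization, and Emcn in ZF-SGLT2i against ZL was 2.7e-05, 0.018, 0.0021 and 0.0091 with median-ratio, quantile, edgeR and DESeq2; Eng there was 0.037 with quantile normalization. With 1 rat left out, ranges crossing 0 were -0.135 to 0.072 (Plvap) and -0.0064 to 0.144 (Flt1) in ZF against ZL; -0.109 to 0.051 (Kdr), -0.093 to 0.084 (Tek), -0.124 to 0.0087 (Nos3), -0.0049 to 0.127 (Flt1) and -0.024 to 0.080 (log2 ratio of Nos3 to Pecam1) in ZF-SGLT2i against ZF; and -0.118 to 0.078 (Emcn), -0.138 to 0.014 (Eng) and -0.045 to 0.118 (Cdh5) in ZF-SGLT2i against ZL.

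The groups share some rat numbers, but these did not pair the rats: 2 of 9 same-numbered pairs had a correlation of deviations over 0.1 (median 0.01, from -0.38 to 0.25), and 1 of 9 rats correlated best with its own number. With the replicate block 0 members were called in each comparison, genes called were 807, 223 and 1502 (2185, 366 and 3184 without it), and Plvap in ZF against ZL (0.127), Flt1 in ZF-SGLT2i against ZF (-0.0014) and Cdh5 in ZF-SGLT2i against ZL (-0.013) changed sign.

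The list counts without ZL rat 3 were added after seeing the data. The smallest adjusted permutation p of a member was 0.171, and Nos3 rests on 98 to 214 reads per rat.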

Other observations

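Beyond the vessels and glomerulus, tubule markers gave counts of their own. Proximal tubule markers summed to 26393 ± 1176 CPM in ZL, 21674 ± 2588 CPM in ZF and 18862 ± 1923 CPM in ZF-SGLT2i rats (SD, n = 4), with 1 of 10 tested higher and 2 lower in ZF against ZL rats. Cyp2e1, a microsomal oxidase, fell by 0.76 on the log2 scale in ZF rats (limma, adjusted p = 0.0027) and rose by 0.85 in treated against ZF rats (adjusted p = 0.0045); it was at 329 to 447 CPM in ZL, 202 to 274 CPM in ZF and 323 to 516 CPM in treated rats. Slc22a6, the organic anion transporter OAT1, rose by 0.33 in ZF rats (adjusted p = 0.040) and fell by 0.59 in treated against ZF rats (adjusted p = 0.0084). The amino acid transporter Slc7a13 fell in ZF rats (-3.98, adjusted p = 0.0060), with ZL rats spread from 139.9 to 1896 CPM and ZF rats at 6.12 to 148 CPM. Against ZL rats treated rats had 0 higher and 3 lower.

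All 9 collecting duct markers had a log2 fold change above 0 in treated against ZL rats and 7 were called, among them Scnn1g, a subunit of the epithelial sodium channel (0.83, adjusted p = 3.1e-04), and Aqp2, the vasopressin-regulated water channel (0.97, adjusted p = 7.4e-04). Aqp2 was the 1 of 9 that rose in treated against ZF rats (0.62, adjusted p = 0.0495), and Scnn1g the 1 of 9 that rose in ZF against ZL rats (0.56, adjusted p = 0.0065). Of 7 thick limb and distal tubule markers Egf fell in ZF against ZL rats (-0.72, adjusted p = 0.0014), and limma called 0 in treated against ZF rats. Of 4 red cell genes Hba2 rose in ZF against ZL rats, with ZL rats at 2.38 to 2.95 CPM and ZF rats at 4.21 to 13.6 CPM (1.44, adjusted p = 0.0497). Without ZL rat 3, 0 of the 4 were called in that comparison. Of 3 adipocyte genes Cidec fell (-2.22, adjusted p = 0.019), with 45.8 CPM in ZL rat 4 and 7.02 to 25.4 CPM in the other ZL rats.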
